A study of Mus musculus with 4 samples.

Results

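The 10 genes described here, *Pax6*, *Sox2*, *Emx2*, *Lhx2*, *Sox9*, *Nes*, *Vim*, *Fabp7*, *Slc1a3* and *Prom1*, are commonly used to recognise radial glia, and they were chosen by name from the 23038 genes of the files. The study asked how loss of the RNA-binding protein Quaking (Qki) changes transcript levels and alternative splicing in the developing cortex. It compared mRNA of E14.5 mouse cortex between 2 control embryos, which carry the loxP-flanked *Qk* allele without Cre (*Qk* fl/fl, named wild type in the labels), and 2 *Qk* cKO embryos, which carry the same allele with Cre recombinase driven by the *Nestin* promoter. The embryos were littermates. Both groups therefore share the floxed allele, and the control has no Cre. The *Nestin* promoter drives Cre in neural progenitor cells, so cells of other lineages in the dissected tissue keep *Qk*, and the promoter of the transgene is that of *Nes*, 1 of the 10 genes.

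Radial glia are the neural stem cells of the embryonic cortex. They line the ventricle, send a long fibre to the pial surface, and divide to give neurons directly or through intermediate progenitors, while late in development they turn to making astrocytes. Qki is an RNA-binding protein of the STAR family that recognises ACUAAC-like sequences, regulates splicing from within introns as its nuclear isoform, and regulates mRNA stability and translation in the cytoplasm.

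Of the 10 genes, 2 passed the edgeR test for a change in level, both downwards, against 0.584% of all genes tested. *Fabp7*, which encodes the brain fatty acid-binding protein of radial glia, fell to 73.1% of control, and *Slc1a3*, which encodes the glial glutamate transporter GLAST, fell to 85.4%. With filterByExpr or limma neither gene passed, and *Slc1a3* also did not pass with edgeR's exact test or DESeq2. The other 8 did not pass the test. Splicing events were present for *Pax6* and *Prom1*, and in *Prom1*, which encodes the membrane glycoprotein prominin-1 (CD133) of apical protrusions, a pair of small coding exons near the 3′ end was used more and a 27-nt exon near the 5′ end was used less in *Qk* cKO by Fisher's exact test on tags. With variation between embryos estimated by edgeR, none of these splicing changes passed the test.

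The exons and sites that the results turn on are shown from GENCODE M21 (GRCm38, the same build as mm10), 5′ to 3′ on the strand of the gene. The first 3 are the alternative exons of *Prom1*, on the minus strand of chromosome 5, shown since their use differed between the groups. The exons of 27, 24 and 69 nt lie at chr5:44058626-44058652, chr5:44001270-44001293 and chr5:44000777-44000845. They are exons 4, 25 and 26 of the 28 exons of transcript Prom1-202, all fully coding, and each is a multiple of 3 nt long, with 9, 8 and 23 codons' worth of sequence. The last is exon 5a of *Pax6* on the plus strand, at chr2:105684751-105684792, which encodes 14 residues inserted in the DNA-binding paired domain, shown as a known alternative exon of this gene for comparison. Capitals mark the alternative exon and lower case the adjoining bases of the neighbouring exons in Prom1-202 or Pax6-206.
Prom1 27-nt exon: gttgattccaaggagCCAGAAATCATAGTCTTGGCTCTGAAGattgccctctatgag
Prom1 24-nt exon: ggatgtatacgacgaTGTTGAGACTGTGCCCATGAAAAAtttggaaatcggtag
Prom1 69-nt exon: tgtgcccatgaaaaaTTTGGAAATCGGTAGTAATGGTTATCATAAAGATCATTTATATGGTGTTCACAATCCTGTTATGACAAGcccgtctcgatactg
Pax6 exon 5a: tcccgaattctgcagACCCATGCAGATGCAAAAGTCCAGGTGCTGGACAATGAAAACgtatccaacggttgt

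For each gene the files give the number of tags, an estimated and often fractional count of sequenced fragments, and the RPKM, which scales it to exon length and library size. Between 37942046 and 42994832 tags were assigned to genes per sample. The genotype was checked at *Qk* exon 2, which Cre removes. The junction of exons 2 and 3 had 635 and 565 tags in control and 63 and 68 in *Qk* cKO, while the junction of exons 3 and 4 had 574 and 439 against 898 and 830. The ratio of exon 2-3 to exon 3-4 junction tags in *Qk* cKO was 6.40% of that in control, in the direction of the labels. Part of this lower ratio came from the exon 3-4 junction, whose tags were higher in both *Qk* cKO embryos. Levels were tested with edgeR's quasi-likelihood test over the 18834 genes that had a tag, with Benjamini-Hochberg adjustment over all of them, and a change is called here where p was below 0.01 and FDR was also below 0.1. With 2 embryos per group the spread is estimated from few samples.

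Levels of the 10 genes in control spanned a wide range in RPKM, which is corrected for exon length and so allows comparison between genes. *Fabp7* was highest at 945 ± 62.3 RPKM (SD, n = 2), followed by *Vim* at 465 ± 22.8. *Nes* at 55.9 ± 1.13 and *Lhx2* at 55.1 ± 3.16 overlapped in the control embryos, and *Pax6* followed at 37.2 ± 0.488 and *Sox2* at 24.9 ± 1.98. *Slc1a3* at 18.5 ± 0.0376, *Prom1* at 17.8 ± 0.566, *Emx2* at 14.3 ± 1.497 and *Sox9* at 9.29 ± 0.138 were lowest. In the plot of RPKM by sample the order of the genes was nearly the same in *Qk* cKO, where *Prom1* lay above *Slc1a3*.

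**Figure D1:**
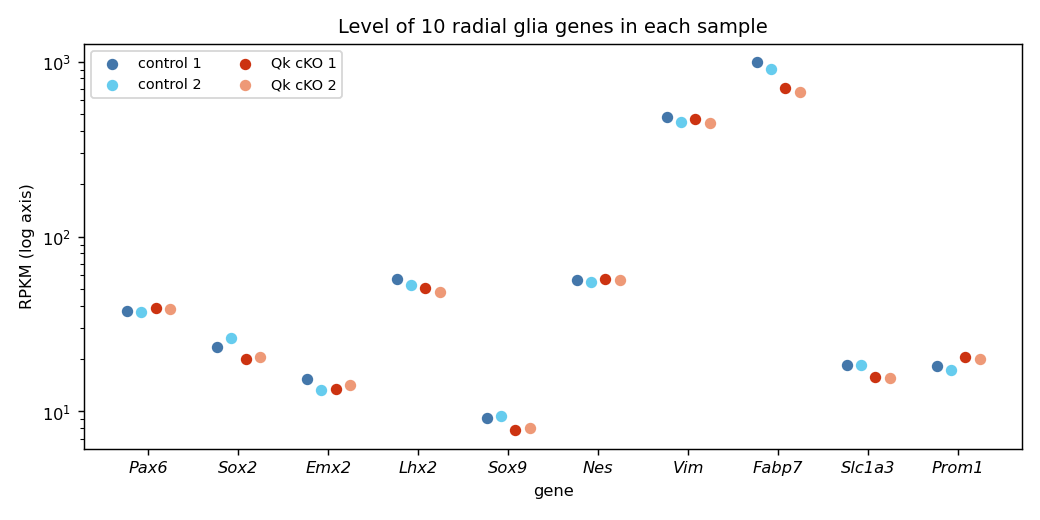
RPKM (log axis) of the 10 genes, with 1 point for each of the 2 control (blue) and 2 *Qk* cKO (red) embryos. *Fabp7* and *Vim* lie far above the other 8 genes, and for *Fabp7* both *Qk* cKO points (703 and 667) lie below both control points (989 and 901).

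Among the genes for lipid binding and transport, *Fabp7* (chr10:57784881-57788450) encodes a protein that binds fatty acids in radial glia and astrocytes. Its RPKM was 989 and 901 in control replicates 1 and 2 and 703 and 667 in *Qk* cKO replicates 1 and 2. Both *Qk* cKO embryos lay below both controls, by more than the controls differed from each other. The log2 fold change was -0.45 (SE 0.080, 95% confidence interval -0.62 to -0.28, edgeR FDR 0.0153). The call was lost when genes were kept by filterByExpr (edgeR FDR 0.140) and on log2(RPKM + 1) with limma (FDR 0.647). It was also lost without either control embryo, with a log2 fold change of -0.38 without control 1 and -0.52 without control 2. All 13 alternatives gave a decrease.

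*Slc1a3* (chr15:8634124-8710764, minus strand) removes glutamate from the extracellular space. Its RPKM was 18.5 and 18.4 in control and 15.8 and 15.5 in *Qk* cKO, so that the groups did not overlap and embryos of a group differed little. The log2 fold change was -0.23 (SE 0.054, 95% confidence interval -0.34 to -0.11, edgeR FDR 0.0887), close to the threshold. The call held in 4 of 13 alternatives, and the log2 fold change lay between -0.25 and -0.20 over all of them. The call was lost with the replicate number as a block (edgeR FDR 0.128). It was also lost without control 1, control 2 or *Qk* cKO 2, with log2 fold changes of -0.22, -0.23 and -0.20.

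Over all genes tested, 0.377% were called lower and 0.207% higher in *Qk* cKO, or 0.584% in either direction, against 2 lower and 0 higher of the 10 radial glia genes. An unadjusted p below 0.05 in edgeR was found for 6 of the 10 genes and for 8.76% of all genes. In RPKM, both *Qk* cKO embryos lay below both controls in 5 of the 10 genes (*Sox2*, *Lhx2*, *Sox9*, *Fabp7* and *Slc1a3*) and above both in 2 (*Pax6* and *Prom1*), and the groups overlapped in 3. Of the 12569 genes with a mean RPKM of at least 1 in both groups, 22.7% lay below both controls in this way and 17.9% above, or 40.6% together. The median log2 fold change was -0.09 over the 10 genes and 0.00 over all genes tested. The 10 genes were chosen with earlier results of these data known, so these shares do not test them as a set.

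None of the 5 transcription factors was called by edgeR or by any alternative run, and an unadjusted p below 0.05 was found for *Sox2*, *Lhx2* and *Sox9*. *Sox2* (chr3:34650405-34652461), an HMG-box factor that maintains neural progenitors and a gene of a single exon, had an RPKM of 23.5 and 26.3 in control and 19.8 and 20.4 in *Qk* cKO. The groups did not overlap, and the log2 fold change was -0.29 (SE 0.086, edgeR FDR 0.213), larger in size than that of *Slc1a3* but with a larger error. *Sox9* (chr11:112782224-112787760), a related factor of stem cells and later of astrocytes, had 9.19 and 9.38 in control and 7.80 and 8.02 in *Qk* cKO, with a log2 fold change of -0.22 (SE 0.103, edgeR FDR 0.561). Both were lower in both *Qk* cKO embryos but missed the threshold.

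*Lhx2* (chr2:38339281-38369733), a LIM homeobox factor that specifies cortical identity, had 57.3 and 52.8 RPKM in control and 50.5 and 48.4 in *Qk* cKO. Its groups lay close together, with a log2 fold change of -0.14 (SE 0.057, edgeR FDR 0.420). *Emx2* (chr19:59458372-59465357), a homeobox factor that patterns the cortical area map, had 15.4 and 13.3 in control and 13.4 and 14.2 in *Qk* cKO. Its groups overlapped, and the log2 fold change was -0.04 (95% confidence interval -0.27 to 0.18, edgeR FDR 0.948). *Pax6* (chr2:105668900-105697364), a paired-box factor of dorsal radial glia, had 37.5 and 36.8 in control and 39.0 and 38.7 in *Qk* cKO. It was the transcription factor with higher values in both *Qk* cKO embryos, with a log2 fold change of 0.08 (95% confidence interval -0.03 to 0.19, edgeR FDR 0.762). The libraries were made without strand, so reads of antisense or overlapping transcripts at *Pax6*, *Sox2* and *Emx2* cannot be told from those of the genes.

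**Figure D2:**
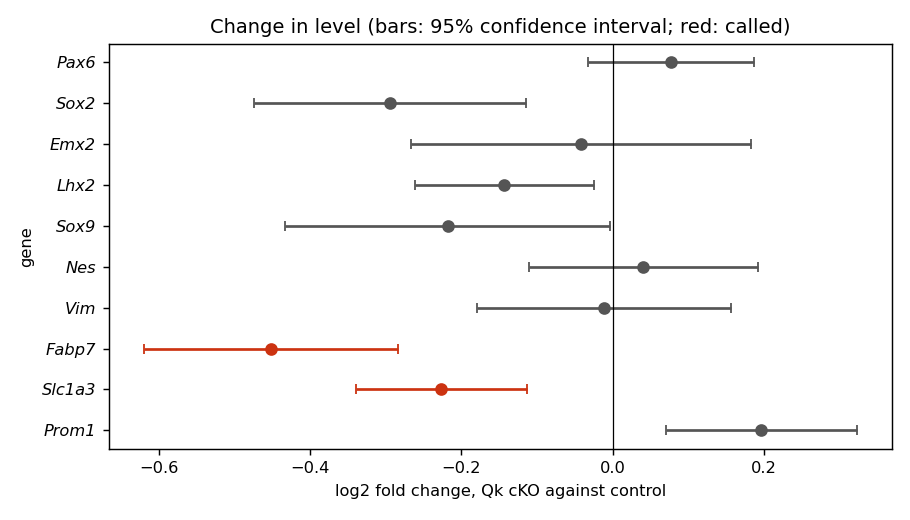
Log2 fold change of each gene in *Qk* cKO against control from edgeR, with bars for the 95% confidence interval and red for the genes called. *Fabp7* at -0.45 and *Slc1a3* at -0.23 are the genes called, while the intervals of *Pax6*, *Emx2*, *Nes* and *Vim* include 0.

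The log2 fold changes of the intermediate filament genes were near 0. *Nes* (chr3:87971078-87980451), which encodes nestin, had 56.7 and 55.1 RPKM in control and 57.5 and 56.3 in *Qk* cKO. The log2 fold change was 0.04 (95% confidence interval -0.11 to 0.19, edgeR FDR 0.915). The groups overlapped for *Nes*, whose promoter the transgene carries. *Vim* (chr2:13573927-13582826), which encodes vimentin, had 481 and 449 in control and 469 and 444 in *Qk* cKO. The log2 fold change was -0.01 (95% confidence interval -0.18 to 0.16, edgeR FDR 0.981), with overlapping groups, in contrast to *Fabp7*. In these bulk samples, fewer cells of a type and less RNA per cell cannot be told apart.

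*Prom1* (chr5:43993620-44102032, minus strand) had 18.2 and 17.4 RPKM in control and 20.4 and 19.9 in *Qk* cKO. Both *Qk* cKO embryos were higher, and the log2 fold change of 0.20 (SE 0.061, 95% confidence interval 0.07 to 0.32, edgeR FDR 0.249) did not pass the threshold. It was the largest increase among the 10 genes.

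Other genes of radial glia, neurogenesis and glia were read in the same fit. Of 13 other radial glia genes, 1 fell and none rose, with a median log2 fold change of -0.06. The gene that fell was *Tnc*, which encodes the extracellular matrix protein tenascin C, with an RPKM of 16.02 and 17.5 in control and 12.5 and 13.2 in *Qk* cKO (log2 fold change -0.37, SE 0.059, edgeR FDR 0.00656). The call was lost with filterByExpr (edgeR FDR 0.102) and with limma (FDR 0.585). It was also lost without control 1 and without control 2, with log2 fold changes of -0.43 and -0.31. *Gli3*, a transcriptional effector of Hedgehog signalling, had a log2 fold change of 0.21 (edgeR FDR 0.223) and *Id4*, an inhibitor of bHLH factors, -0.23 (edgeR FDR 0.344).

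Of 10 astroglial genes, 1 fell. *Aldh1l1*, which encodes a folate enzyme used as an astrocyte marker, had 12.3 and 11.5 RPKM in control and 7.93 and 7.41 in *Qk* cKO, with a log2 fold change of -0.62 (SE 0.110, edgeR FDR 0.0153). Both *Qk* cKO embryos lay below both controls, and the call was lost with filterByExpr (edgeR FDR 0.137) and with limma (FDR 0.463). It was also lost without control 1 and without control 2, with log2 fold changes of -0.57 and -0.67. The list as a whole had a median log2 fold change of 0.01. *Slc1a2*, the second glial glutamate transporter, had a log2 fold change of -0.20 (edgeR FDR 0.311) and *Gja1*, a gap junction protein, 0.24 (edgeR FDR 0.625). The groups overlapped for *Gja1*, with 14.3 and 13.5 RPKM in control and 13.0 and 19.5 in *Qk* cKO. *Gfap*, the filament of mature astrocytes, was at 0.130 and 0.0971 RPKM in control and 0.0514 and 0.0478 in *Qk* cKO, far below the radial glia genes.

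None of the 8 intermediate progenitor genes was called by edgeR, its exact test or DESeq2, and 2 had an unadjusted p below 0.05. Their median log2 fold change was -0.08. In RPKM, 5 were lower in both *Qk* cKO embryos than in both controls, against 22.7% of genes with a mean RPKM of at least 1 in both groups. *Hes6* and *Neurog1* had log2 fold changes of -0.24 (edgeR FDR 0.414) and -0.49 (edgeR FDR 0.484). Of 10 proliferation genes, 1 rose. *Ccna2*, which encodes cyclin A2 of S phase and G2, had 64.5 and 57.4 RPKM in control and 71.8 and 73.2 in *Qk* cKO (log2 fold change 0.26, SE 0.059, edgeR FDR 0.0713). The call was lost with edgeR's exact test (FDR 0.177), filterByExpr (edgeR FDR 0.336) and limma (FDR 0.647). It was also lost without any 1 of the 4 embryos, with log2 fold changes between 0.18 and 0.35. The log2 fold change was above 0 in 9 of the 10 proliferation genes, with a median of 0.16, and in 9315 of the 18834 genes tested. An unadjusted p below 0.05 in edgeR was found for 5 of the 10, against 8.76% of all genes. None of the 10 postmitotic neuron genes was called by edgeR, its exact test or DESeq2, with a median of 0.01 and 2 at an unadjusted p below 0.05. *Nefl*, a neurofilament, and *Tbr1*, a factor of early deep-layer neurons, had log2 fold changes of -0.34 (edgeR FDR 0.395) and 0.15 (edgeR FDR 0.540). In the neuron list this absence of calls did not hold without *Qk* cKO 1.

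Markers of the tissue and of what else it could hold were read beside these values. The 7 pallial patterning genes summed to between 115 and 130 RPKM per embryo, and the 10 neuron genes to between 1326 and 1437. None of the pallial genes was called by edgeR, its exact test or DESeq2, 2 had an unadjusted p below 0.05, and their median log2 fold change was -0.18, while that of the 9 subpallial genes was 0.09, with 0 called, 2 at an unadjusted p below 0.05 in edgeR, and summed levels of 175 and 185 in control and 185 and 187 in *Qk* cKO. Subpallial genes were thus detected in every embryo. The choroid plexus markers summed to 781 and 629 RPKM in control and 578 and 804 in *Qk* cKO, nearly all of it *Ttr*, and the 5 meningeal markers to 72.1 and 67.4 against 61.4 and 91.5. In both of these lists the groups overlapped and none was called, with 0 and 2 genes at an unadjusted p below 0.05 in edgeR. The highest meningeal sum was in *Qk* cKO 2, and the absence of calls among these markers did not hold when either *Qk* cKO embryo was left out. The 8 endothelial and mural markers summed to between 89.0 and 103 and the 6 microglial markers to between 23.5 and 26.4, with none called by edgeR, its exact test or DESeq2, and 1 and 0 genes at an unadjusted p below 0.05. For the endothelial and mural markers this absence of calls did not hold without *Qk* cKO 1. Of the 6 erythroid markers found, the adult beta-globin gene named *Beta-s* in the files rose, from 339 and 374 RPKM to 557 and 410 (log2 fold change 0.45, edgeR FDR 0.0620). The call was lost with edgeR's exact test (FDR 0.161), DESeq2 (FDR 0.581), filterByExpr (edgeR FDR 0.374) and limma (FDR 0.666). It was also lost without either control embryo, and without *Qk* cKO 1, where the log2 fold change was 0.20. The list summed to 791 and 804 in control and 1144 and 849 in *Qk* cKO. No marker of these lists was at 0 in all samples. The part of these cell types in the changes of *Fabp7* and *Slc1a3* was not tested.

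The 3′ untranslated regions of the 10 genes were searched for the Qki recognition letters ACTAAC on the transcript strand, in the longest annotated one of each gene. *Lhx2* held 2 overlapping matches in 604 nt, and 7.54% of genes with a 3′ untranslated region of like length held at least 1. *Slc1a3* held 1 in 2008 nt, where 25.4% of genes of like length did. The other 8 genes held none. The related letters ACTAAT occurred 1 time each in *Fabp7* (277 nt) and *Sox2* (1086 nt), and 8.82% and 30.8% of genes of like length held either set of letters. The sites of the first set, with every base of an ACTAAC match in capitals, so that the capitals of *Lhx2* span both overlapping matches, lie at chr2:38369219-38369248 and chr15:8634253-8634282 on the strand of their genes and are shown since 1 of the 2 genes called carries one.
Lhx2 site: gaggtttgagcaACTAACTAACcacgtttt
Slc1a3 site: gatattttttatACTAACcatttcttacag
A match describes the letters of the annotated transcript and is not a measured binding site.

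For splicing, the files give tags on exon junctions for 38240 events of 6 types, of which 24 belong to the 10 genes, 9 to *Pax6* and 15 to *Prom1*. *Sox2* consists of a single exon, and the other 7 genes had no event in the files. Inclusion was calculated from junction tags. The junction tags of the isoform with the exon were divided by its number of inclusion junctions, 2 for a cassette exon and 3 for a pair of exons. This value was taken as a share of itself plus the skipping tags. For mutually exclusive exons the junction tags of both sides were used undivided. An event was tested where every group and every isoform held at least 20 junction tags, a number called its coverage. Of the 24 events, 7 were tested, 2 in *Pax6* and 5 in *Prom1*. For Fisher's exact test, which the study also used, the isoform tags were summed over embryos. They are a separate count in the files, so p-values and inclusion values rest on different counts. The test leaves out the variation between embryos. By it, 4 of the 7 were called, all in *Prom1*, against 7.50% of the 11500 events tested in all genes. The same 4 were called when junction tags replaced the isoform tags. Inclusion was higher in *Qk* cKO in 3 of the 4 (3.97% of all events) and lower in 1 (3.53% of all events). Those 3 count the same pair of neighbouring exons from shared tags, so the events counted here are not independent changes. The inclusion of the groups did not overlap in 5 of the 7 events, against 37.9% of all. In edgeR's interaction test of isoform by genotype, which estimates the variation between embryos, 0 of the 7 were called at the same limits, against 0.557% of all events, and 4 of the 7 had an unadjusted p below 0.05, against 7.17% of all events.

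The 24-nt and 69-nt exons of *Prom1* were used together more often in *Qk* cKO. They lie between exon 24 (chr5:44001786-44001901) and exon 27 (chr5:43995075-43995114) of Prom1-202. Control replicates 1 and 2 included the pair at 0.375 and 0.352 (95% Wilson intervals of 0.286 to 0.474 and 0.255 to 0.462). The *Qk* cKO embryos included it at 0.556 and 0.631, with intervals of 0.462 to 0.647 and 0.533 to 0.719. Both *Qk* cKO embryos lay above both controls, and the intervals cover counting error only. Over the summed junction tags, the control value was 0.365 and the *Qk* cKO value 0.592, a difference of 0.227 (Fisher's exact test on isoform tags, p = 9.6e-08, FDR 6.2e-06). The isoform tags of the pair were those of its 2 exons added, with 51.0, 54.0 and 105 in control 1. Tags on both exons may thus enter more than once, and this p may be too small even for counting error. The FDR of the edgeR interaction test was 0.160. Taken as control minus *Qk* cKO, the difference was -0.227 and ranged from -0.266 to -0.191 when single embryos were omitted.

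The junctions around the pair were also read one by one. Of the tags that left exon 24, 39.4% and 37.0% in control went to the 24-nt exon, and 60.4% and 61.2% in *Qk* cKO. The direct junction to exon 27, which skips both, took 58.7% and 63.0% in control and 39.2% and 33.7% in *Qk* cKO. Between 81 and 121 tags left exon 24 per embryo. Of the tags that entered exon 27, the skipping junction took 65.6% and 66.2% in control and 52.8% and 38.6% in *Qk* cKO, and the 69-nt exon 31.2% and 31.2% in control and 42.7% and 59.6% in *Qk* cKO. From exon 24 skipping was thus the minor route in both *Qk* cKO embryos, while into exon 27 it was still the more frequent route in *Qk* cKO 1 and the less frequent one in *Qk* cKO 2.

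Few tags used 1 exon of the pair without the other. The 24-nt exon was joined to the 69-nt exon by 40 and 29 tags in control and 67 and 65 in *Qk* cKO, and to exon 27 by 3 and 2 against 4.08 and 1.74. Exon 24 was joined directly to the 69-nt exon by at most 5.58 tags in any embryo. The 2 exons were thus mostly present or absent together, and their events share tags and are not independent of each other.

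**Figure D3:**
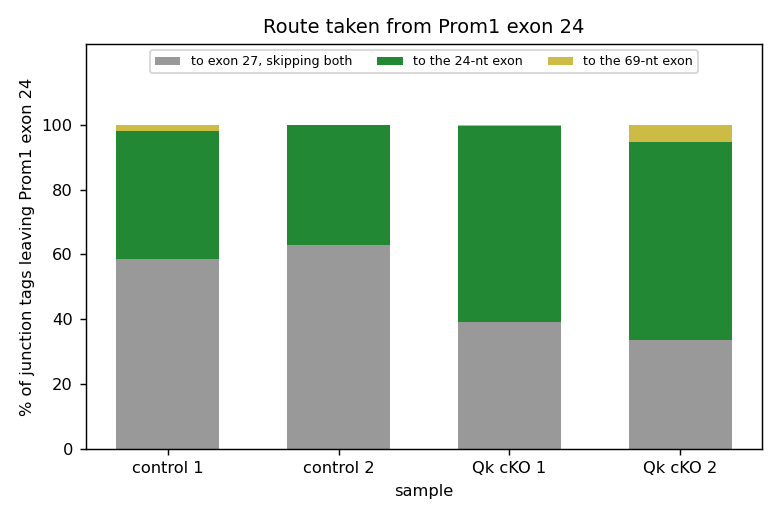
Share of the junction tags leaving *Prom1* exon 24 that went to exon 27 (grey), to the 24-nt exon (green) or to the 69-nt exon (yellow), as stacked bars for each embryo. The grey share is 58.7% and 63.0% in control and 39.2% and 33.7% in *Qk* cKO.

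Each exon of the pair was also an event of its own against skipping of both. Inclusion of the 24-nt exon was 0.265 and 0.239 in control and 0.448 and 0.483 in *Qk* cKO, a difference of 0.211 (Fisher's exact test, p = 1.6e-06, FDR 9.9e-05, edgeR interaction test FDR 0.213). Inclusion of the 69-nt exon was 0.203 and 0.190 in control and 0.290 and 0.459 in *Qk* cKO, a difference of 0.178 (Fisher's exact test, p = 4.2e-06, FDR 2.3e-04, edgeR interaction test FDR 0.273). The *Qk* cKO embryos differed from each other more for the 69-nt exon than for the 24-nt exon, and without *Qk* cKO 2 the difference, as control minus *Qk* cKO, was -0.0932 for the 69-nt exon (Fisher's exact test, FDR 0.0401).

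The 27-nt exon of *Prom1* moved in the other direction. The control embryos included it at 0.867 and 0.836, with 95% Wilson intervals of 0.773 to 0.926 and 0.744 to 0.900. The *Qk* cKO embryos included it at 0.767 and 0.656, with intervals of 0.673 to 0.841 and 0.564 to 0.738. Both *Qk* cKO embryos lay below both controls, by a margin that differed between them. The skipping junction had 10.1 and 14 tags in control and 22 and 38 in *Qk* cKO, while the upstream inclusion junction had 61.8 and 67 against 69 and 68, so the difference lay mainly in the skipping tags. Summed over embryos, inclusion was 0.707 in *Qk* cKO against 0.851 in control (Fisher's exact test, p = 0.0012, FDR 0.0253). The call was lost without control 1 (Fisher's exact test, FDR 0.231), without *Qk* cKO 2 (FDR 0.411), where the difference was 0.0836, and in the edgeR interaction test (FDR 0.462). In the annotation, 3 of 13 *Prom1* transcripts with a coding sequence hold the 27-nt exon, 3 hold the 24-nt exon and 2 hold the 69-nt exon. Of the 13, only 11, 7 and 7 extend beyond these exons on both sides.

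The remaining tested event of *Prom1*, the 24-nt and the 69-nt exon counted as mutually exclusive, was at 0.587 and 0.571 in control and 0.665 and 0.524 in *Qk* cKO and was not called (Fisher's exact test, FDR 1). Events under the coverage limit were not tested. Among them, a retained intron next to exon 24 had 2 and 4 tags on its borders in control and 24 and 13 in *Qk* cKO, with about 4 or fewer tags on its splice junction in any embryo, values given here because they were noticed after the data were seen.

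In *Pax6* neither tested event was called. The control embryos included exon 5a at 0.128 and 0.144, with 95% Wilson intervals of 0.0918 to 0.175 and 0.103 to 0.197. The *Qk* cKO embryos included it at 0.114 and 0.112, with intervals of 0.0802 to 0.159 and 0.0759 to 0.161. Between the summed values inclusion fell by 0.0225 (Fisher's exact test, FDR 0.818). The exon was thus skipped in most transcripts of both groups, and the intervals of all 4 embryos overlap. A 229-nt cassette exon further upstream had 0.797 and 0.667 in control and 0.717 and 0.780 in *Qk* cKO, with overlapping groups (Fisher's exact test, FDR 0.980).

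**Figure D4:**
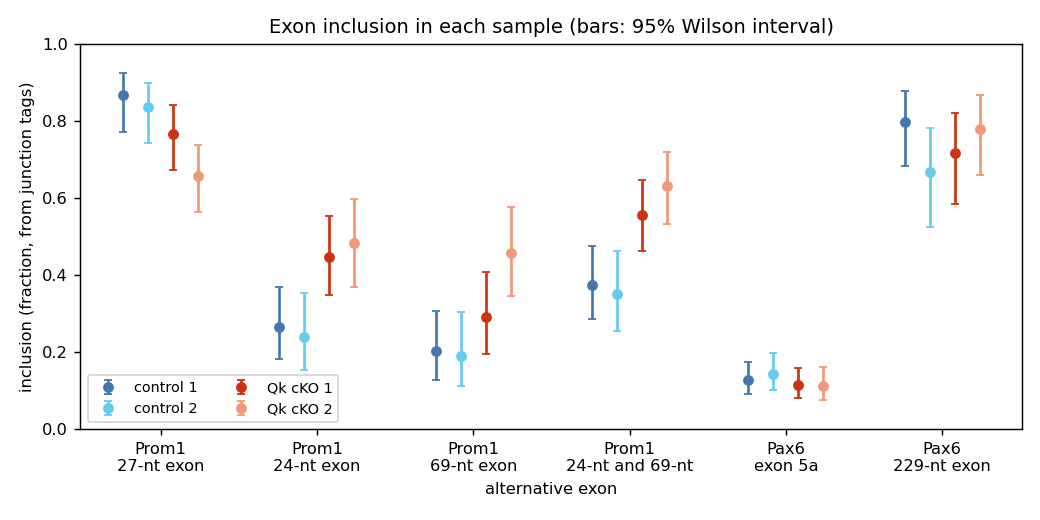
Inclusion (fraction, from tags per junction) of 6 tested alternative exons or exon pairs of *Prom1* and *Pax6*, with 1 point per embryo and bars for the 95% Wilson interval, which covers counting error only. In *Prom1*, inclusion of the 24-nt and 69-nt exons is higher and that of the 27-nt exon lower in both *Qk* cKO embryos, while for *Pax6* the intervals of all embryos overlap. The values of the single 24-nt and 69-nt exons leave out the junction between them and so understate their use.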

How the data were processed

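Messenger RNA of E14.5 cortex was analysed in 4 samples, grouped by their labels. Reads were mapped to mm10 with junctions by OLego, and Quantas then counted them, per the paper's methods. The deposited gene values are an estimated count of tags, often fractional, and its RPKM. For splicing events, the authors gave estimated counts of the tags on isoforms and on junctions. The alignment, mRNA selection and assignment to isoforms are part of these values.

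Rounded tags were TMM-normalized and compared by quasi-likelihood in edgeR 4.0.16 (with R 4.3.3), and splicing with Fisher's exact test (scipy 1.17.1), adjusted within each event type. Depth and thresholds are given with the results. The 10 genes and all gene lists were chosen with earlier results of these data known. Named are all 10 genes, every called gene of a list or otherwise up to 3 genes with the smallest p, and member events that were called or changed by at least 0.1. Exon 5a, the other events with low coverage or no call, and *Gfap* are named outside this rule. List genes were matched by symbol, and *Map2* and the beta-globin gene by gene ID to *Mtap2* and *Beta-s*, while *Hbb-bt* was not found. Exon sequences are from GENCODE M21. Like length means within 0.8 to 1.25 times. The labels name 2 samples per group, and the paper describes littermates, so p-values for levels and of the edgeR interaction test measure only the spread between these embryos. Those of Fisher's exact test measure counting error, which may be understated for the *Prom1* exon pair, and leave out that spread. The tests across genes and events were first run on simulated data. Alternatives were other scalings (RLE, upper quartile), filters, tests (DESeq2 1.42.0, limma 3.58.1, edgeR's exact and interaction tests, Cochran-Mantel-Haenszel), coverage limits of 10 and 50, and each sample left out.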

Additional observations from a re-analysis of the deposited data

How the results depend on the processing

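Of the 10 radial glia genes, 2 were called in the comparison of levels. None was called with filterByExpr or with limma on log2(RPKM + 1), that is 0 in each, and 1 was called without a filter, with edgeR's exact test and with DESeq2. With each embryo left out in turn, between 0 and 2 were called (0 without either control, 2 without *Qk* cKO 1 and 1 without *Qk* cKO 2), a fit in which the lone embryo of a group is assumed to vary like the others. At filterByExpr 11 genes were called over all genes and with limma 0, against 110 in the comparison reported. Of the genes in the other lists, 4 were called, 0 with filterByExpr, 0 with limma and 2 with edgeR's exact test, and between 0 and 9 with an embryo left out (0 without either control, 9 without *Qk* cKO 1 and 6 without *Qk* cKO 2). Of the splicing events of *Pax6* and *Prom1*, 4 were called, 0 in the edgeR interaction test and 3 (without control 1 or *Qk* cKO 2) or 4 with an embryo left out. The cause of these differences was not tested, other than that leaving out an embryo removes samples. The direction of the 8 genes other than *Emx2* and *Vim* was kept in all 13 alternatives. With an embryo left out, the log2 fold change of *Emx2* lay between -0.149 and 0.0712 (turned without control 1), and that of *Vim* between -0.0658 and 0.0413 (turned without control 1 and, at 0.0358, without *Qk* cKO 2). The *Qk* exon 2 measure lay between 5.90% and 6.92% with an embryo left out.

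With the replicate number as a block, 1 of the 10 genes was called (*Fabp7*), with 5 in the other lists, 192 over all genes, 4 splicing events and 6.35% for *Qk* exon 2. The labels do not say what a number marks. Samples with the same number deviated from their group means with a correlation of 0.172 over 12916 genes, -0.0796 over the 12432 autosomal ones and -0.0152 over 11396 splicing events, so the correlation over all genes was not present on the autosomes. With 2 pairs the numbers were not taken to pair the samples.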
